A study of Mus musculus with 8 samples.

Results

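The 4 wild type libraries of the series hold messenger RNA from the ventral mesencephalic area, the floor of the mouse midbrain. They were taken by their genotype label and are 4 of 8 libraries in all; the other 4 come from Ercc1 delta/+ mice and enter no comparison here. Per the labels, the animals were of the FVB:C57BL/6J strain on a regular diet, and the sources used here give neither their age nor their sex. RNA with an integrity number above 8 was selected for poly(A) and made into barcoded libraries that shared 1 sequencing lane. The labels number the samples but do not state that each came from a separate animal, so the spread given below is that between these libraries and may be partly technical.

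The ventral midbrain contains the substantia nigra and the ventral tegmental area, whose dopaminergic neurons project to the striatum and forebrain, and those of the substantia nigra are lost in Parkinson disease. They lie among GABAergic neurons of the substantia nigra pars reticulata, glutamatergic neurons of the red nucleus and oculomotor neurons, and are crossed by thick myelinated tracts. The hypothalamus lies in front of this block of tissue, the thalamus above it, and the serotonergic raphe nuclei behind and along the midline. A bulk library is a sum over all these cells, so fewer cells of a type and less RNA per cell cannot be told apart.

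Expression was read in CPM, the counts of a gene per 1000000 counts of its library, which serves to compare libraries. Different genes were compared by level per transcript length, in TPM, the share of transcripts per 1000000. Library totals ran from 20517411 counts in replicate 2 to 31196965 in replicate 4, so that 3 counts were worth between 0.0962 and 0.146 CPM. Of 15279 genes with a row, 13729 reached 1 CPM in all 4 libraries. A mean of at least 10 CPM was reached by 10659 genes, at least 100 CPM by 2499 and at least 1000 CPM by 60. Across genes, the libraries ranked levels almost alike, with Spearman's rho from 0.979 (replicates 2 and 4) to 0.993 (replicates 1 and 3), given as a description.

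The pool of messenger RNA was broad. The 10 most abundant genes took 3.48 ± 0.354% of counts (SD, n = 4), the 100 most abundant took 14.5 ± 0.419%, and between 1196 and 1301 genes were needed to make up 50% of a library. Among the most abundant was Ubb, which encodes ubiquitin, the tag that marks proteins for breakdown, at 7008 ± 102 TPM. Its 4 libraries lay between 3579 and 3644 CPM, and because ubiquitin units are repeated in near-identical form in the genome its level is uncertain.

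Mbp, which encodes myelin basic protein, the main protein of the inner face of the myelin sheath, followed at 5044 ± 1230 TPM. Its length-scaled level depends on which transcript stands for the gene: it was 19080 TPM with the short transcript of its deposited row and 2774 TPM with its longest coding transcript. Next was Fth1, the heavy chain of the iron store ferritin, at 4385 ± 730 TPM, and then Apoe, a lipid carrier secreted by astrocytes, at 3364 ± 283 TPM. With its longest coding transcript Fth1 had 2886 TPM, below Apoe at 3561 TPM by the same measure. After them came the translation factor Eef1a1 (3273 ± 299 TPM), the peptide-processing enzyme Cpe (3267 ± 349 TPM) and the secreted protease inhibitor Cst3 (3253 ± 358 TPM). The neighbours from Apoe to Cst3 differed by less than 1 SD of any of them.

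The alpha-tubulin genes Tuba1a, Tuba1b and Tuba1c had 3110 ± 173, 3098 ± 168 and 2402 ± 128 TPM, but their coding sequences are nearly the same and their split is uncertain. Snap25, a component of the machinery that fuses synaptic vesicles, had 2833 ± 367 TPM, and Sparcl1, a secreted matrix protein of astrocytes and neurons, had 3025 ± 101 TPM. The chaperones Hspa8 and Hsp90ab1 had 2783 ± 278 and 2021 ± 107 TPM. Only 15 genes stood in the top 25 of both scales, because CPM favours long transcripts such as those of the kinesins Kif5a and Kif1a and of App, the amyloid precursor. The row NM_144921 had 3695 ± 438 CPM, matched no symbol and has no length here.

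**Figure D1:**
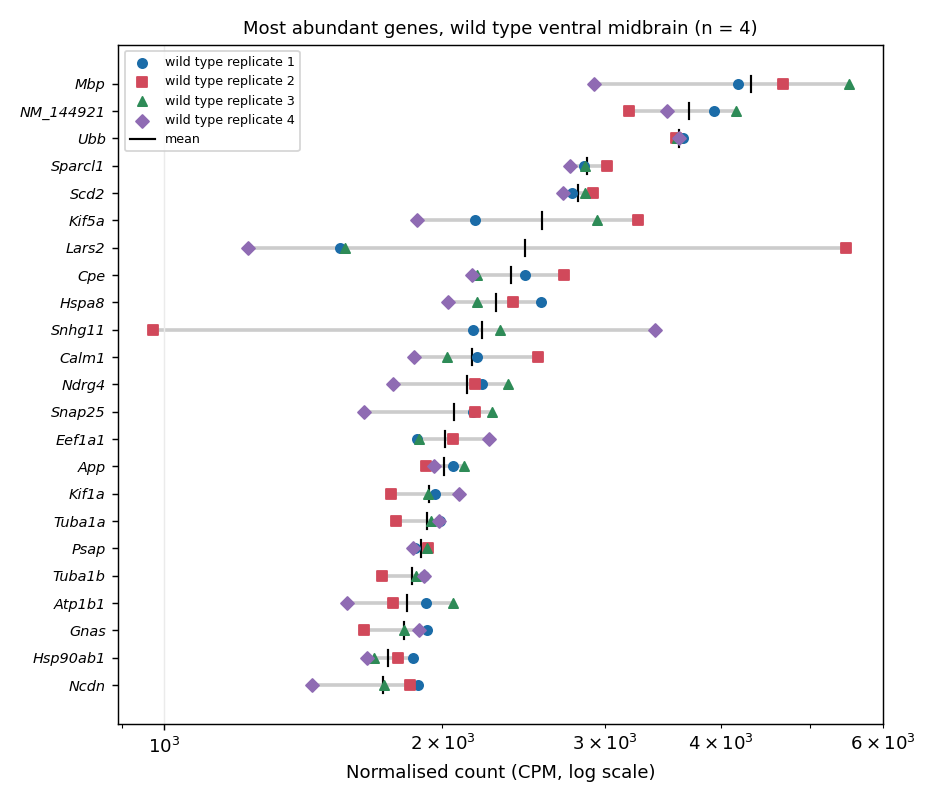
Of the 25 genes of highest mean CPM in the 4 wild type libraries, 23 are shown. The horizontal axis is CPM on a log scale, each symbol is 1 library, the grey bar spans the lowest to the highest library and the black tick is the mean. Most genes span a narrow range, whereas Lars2 reaches 5467 CPM in replicate 2 and Snhg11 runs from 972 to 3395 CPM.

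Among these abundant genes a few differed widely between libraries. Lars2, which encodes the mitochondrial leucyl-tRNA synthetase, had 1548, 5467, 1570 and 1231 CPM in replicates 1 to 4. Snhg11, a neuronal transcript that hosts small nucleolar RNAs, had 2156, 972, 2308 and 3395 CPM. Ptgds, a prostaglandin synthase abundant in the meninges and in oligodendrocytes, had 336, 722, 844 and 1398 CPM. Replicate 2 was thus the highest for Lars2 and the lowest for Snhg11, and replicate 4 was the highest for Snhg11 and Ptgds; what lies behind the value of Lars2 was not tested.

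Dopamine is made from tyrosine in the step set by tyrosine hydroxylase (Th) and the decarboxylation by Ddc, packed into vesicles by the transporter VMAT2 (Slc18a2), and taken back from the synapse by the dopamine transporter (Slc6a3). The promoter windows of Th, Slc18a2 and Slc6a3 are shown because these 3 genes are the given markers of dopaminergic neurons; each runs from 250 bases before to 50 after the start of transcription, in RefSeq's GRCm38.p6. Tph2, the enzyme of serotonin synthesis, is shown beside them because its level differed widely between the libraries. Capitals mark TGACGTCA, the full cyclic AMP response element, a palindrome that reads the same on both strands, or TATAAA, the TATA box. TATAAA was searched on both strands. The windows lie at chr7:142899946-142900245 on the minus strand for Th, chr19:59260628-59260927 on the plus strand for Slc18a2, chr13:73536497-73536796 on the plus strand for Slc6a3 and chr10:115184973-115185272 on the minus strand for Tph2.
Th: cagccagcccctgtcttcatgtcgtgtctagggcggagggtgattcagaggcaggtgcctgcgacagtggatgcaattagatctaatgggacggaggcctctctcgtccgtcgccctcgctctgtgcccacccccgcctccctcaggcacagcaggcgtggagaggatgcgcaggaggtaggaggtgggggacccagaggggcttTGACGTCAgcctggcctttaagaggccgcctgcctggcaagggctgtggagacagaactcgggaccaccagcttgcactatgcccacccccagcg
Slc18a2: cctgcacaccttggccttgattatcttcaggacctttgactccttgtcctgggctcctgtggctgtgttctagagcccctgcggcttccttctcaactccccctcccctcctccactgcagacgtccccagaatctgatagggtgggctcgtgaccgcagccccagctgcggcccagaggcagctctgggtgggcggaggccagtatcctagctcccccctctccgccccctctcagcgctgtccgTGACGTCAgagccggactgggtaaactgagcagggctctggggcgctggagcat
Slc6a3: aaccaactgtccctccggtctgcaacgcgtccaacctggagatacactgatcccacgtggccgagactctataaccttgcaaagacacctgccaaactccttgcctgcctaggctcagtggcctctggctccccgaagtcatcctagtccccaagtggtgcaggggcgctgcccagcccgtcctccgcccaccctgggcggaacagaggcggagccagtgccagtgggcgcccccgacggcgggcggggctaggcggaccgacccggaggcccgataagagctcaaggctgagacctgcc
Tph2: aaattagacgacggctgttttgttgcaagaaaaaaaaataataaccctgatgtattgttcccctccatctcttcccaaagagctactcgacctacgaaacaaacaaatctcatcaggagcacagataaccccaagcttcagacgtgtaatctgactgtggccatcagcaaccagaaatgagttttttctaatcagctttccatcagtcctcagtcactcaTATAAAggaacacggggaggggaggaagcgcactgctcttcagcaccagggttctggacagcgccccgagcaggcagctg

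TGACGTCA began 45 bases before the start in Th and 4 bases before it in Slc18a2, so that in Slc18a2 it covers the start itself. The Slc6a3 window holds neither word, and the Tph2 window holds TATAAA on the forward strand, 30 bases before the start. Of all 32851 windows of this length, 1.79% hold TGACGTCA and 13.6% hold TATAAA on either strand. Among the 15249 windows of genes with a row the shares are 2.79% and 7.78%. Of 33 windows of the dopaminergic list, 2 hold TGACGTCA (Th and Slc18a2). TATAAA lies on either strand in 7 of them, in Ddc, Foxa2, Gch1, Nr4a2, Otx2 and Sox6. These are matches of letters and not measured sites.

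The transmitter genes that define dopaminergic neurons were measured well above the counting limit in all 4 libraries. Th had 53.8, 44.2, 68.5 and 54.1 CPM in replicates 1 to 4, from between 906 and 1714 counts. Slc6a3 had 81.7, 63.5, 111 and 62.4 CPM, and Slc18a2 had 51.3, 44.1, 84.9 and 55.3 CPM. All 3 were highest in replicate 3, and Th and Slc18a2 were lowest in replicate 2. By level per length, Th (87.8 ± 15.8 TPM) and Ddc (86.6 ± 23.1 TPM) lay within the spread of each other, Slc6a3 had 67.0 ± 18.6 TPM and Slc18a2 had 45.3 ± 13.6 TPM. The ratio of Th to Slc6a3 per length was 1.24, 1.31, 1.17 and 1.64, highest in replicate 4, where Slc6a3 was lowest and Th was near its mean.

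These transmitter genes were of middling abundance in the whole tissue: Th ranked 2555 and Slc6a3 3423 among genes by TPM. The most abundant members of the dopaminergic list were Aldh1a1, the retinaldehyde dehydrogenase that marks ventral nigral neurons, at 137 ± 24.3 TPM, and Dlk1, a Notch-like membrane protein of dopaminergic and hypothalamic neurons, at 132 ± 41.8 TPM. With the transcript length of its deposited row, Dlk1 had 309 TPM and Aldh1a1 133 TPM. Sncg, which encodes gamma-synuclein, had 79.6 ± 16.7 TPM, and Ret, the receptor for the GDNF family of growth factors, had 58.1 ± 11.3 TPM. The nicotinic receptor subunits Chrna6 and Chrnb3 had 13.4 ± 2.44 and 7.81 ± 1.54 TPM. All 24 members had a row, and 23 of them averaged at least 1 CPM.

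The transcription factors that specify and maintain these neurons were far lower. Nr4a2 (Nurr1) was the highest of them at 22.3 ± 4.70 TPM, with 27.2, 22.4, 24.7 and 35.1 CPM in replicates 1 to 4. Otx2, of ventral tegmental neurons, and Sox6, of nigral ones, had 11.6 ± 1.05 and 9.95 ± 0.898 TPM. The engrailed genes En1 and En2 had 5.65 ± 2.54 and 3.78 ± 1.68 TPM and were both highest in replicate 3. Foxa1, Lmx1a, Foxa2 and Lmx1b lay between 0.646 and 3.59 TPM. Pitx3, which is needed for nigral neurons to form, had only 0.811, 0.634, 0.759 and 0.769 CPM, from 21, 13, 19 and 24 counts. Its SD was 10.3% of the mean, below the 23.2% that counting error alone gives, so its narrow range does not show a steady level.

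**Figure D2:**
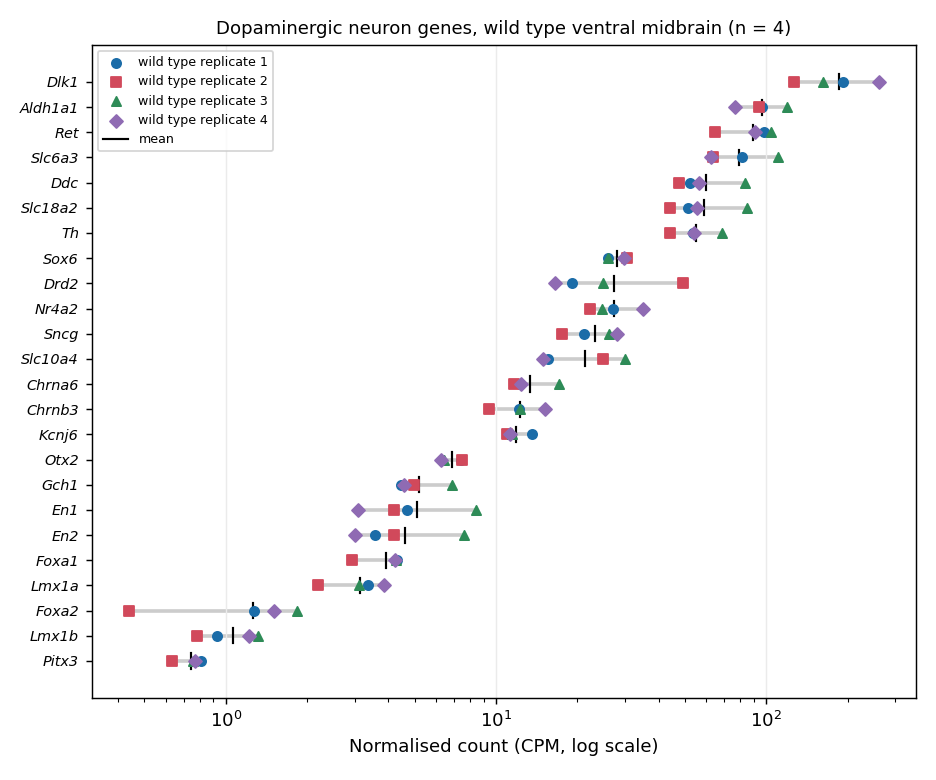
The 24 genes of the dopaminergic list in the 4 wild type libraries. The horizontal axis is CPM on a log scale, each symbol is 1 library, the grey bar spans the lowest to the highest library and the black tick is the mean. Th, Ddc, Slc6a3 and Slc18a2 lie between 44.1 and 111 CPM and transcription factors mostly below 10 CPM. Of the 23 genes that averaged at least 1 CPM, 13 are highest in replicate 3, against 20.2% of all genes at that level.

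The summed level of the dopaminergic list was 805, 689, 946 and 849 CPM in replicates 1 to 4. Of its 23 members that averaged at least 1 CPM, 13 were highest in replicate 3, 5 in replicate 4, 3 in replicate 2 and 2 in replicate 1. Over all 14172 genes at that level, replicate 3 was the highest library for 20.2%, replicate 4 for 43.2%, replicate 2 for 22.5% and replicate 1 for 14.1%. With TMM library sizes, which balance the libraries on the bulk of genes, those background shares were 19.8%, 31.3%, 30.9% and 18.0%, and the 13 genes highest in replicate 3 were again 13. The 7 members that spread most (a coefficient of variation, the SD as a percent of the mean, above 30%, found in 9.08% of all 14172 genes) were led by Drd2, the D2 receptor, at 54.4%. Drd2 had 19.1, 49.1, 24.9 and 16.5 CPM and was highest in replicate 2, the library in which all striatal genes of the lists were also highest; whether striatal RNA contributed to it was not tested.

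The remaining enzymes of the dopamine pathway are shared with other cells. Qdpr, Spr and Pts, which make or recycle the cofactor of tyrosine hydroxylase, had 586 ± 83.8, 85.0 ± 6.19 and 39.7 ± 4.12 TPM, whereas Gch1, which starts that synthesis, had 5.47 ± 1.15 TPM. Of the enzymes that break dopamine down, Maob had 70.2 ± 18.7 TPM and Maoa had 38.6 ± 6.74 TPM. The receptors Drd1, Drd5 and Drd3 had 17.6 ± 16.5, 5.60 ± 0.823 and 1.66 ± 0.129 TPM, and Drd1 shared the high value of Drd2 in replicate 2. Drd4 had no row and was not analysed here.

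Genes that divide dopaminergic neurons into nigral and tegmental types varied in level over a wide range, and several are used by other neurons too. Cck, a peptide of tegmental and forebrain neurons, had 364 ± 98.7 TPM. Calb1, the calcium buffer of the dorsal tier, had 109 ± 21.7 TPM. Kcnj6 (GIRK2) had 11.2 ± 1.16 TPM, Ndnf 3.38 ± 0.639 TPM and Anxa1 5.48 ± 1.65 TPM. The widest of the 13 was Vip, with 1.35, 11.6, 3.76 and 5.06 CPM.

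The serotonergic list had the largest coefficient of variation of all lists, 81.3%. Tph2 had 0.850, 19.9, 58.2 and 0.865 CPM in replicates 1 to 4, from 22, 408, 1456 and 27 counts. Slc6a4, the serotonin transporter, had 0.695, 10.8, 37.5 and 0.385 CPM. Both genes were high in replicate 3, intermediate in replicate 2 and below 1 CPM in the other two. Fev, the transcription factor of serotonin neurons, had 0.193, 0.292, 2.08 and 0.288 CPM, high in replicate 3 alone. The receptor Htr1a, which many forebrain neurons also use, stayed between 15.6 and 20.5 CPM, and the receptor Htr5b had 4.40, 3.27, 3.96 and 6.60 CPM, highest in replicate 4. Of the 5 members that averaged at least 1 CPM, 3 were highest in replicate 3, 1 in replicate 2 and 1 in replicate 4. Over all genes at that level those shares were 20.2%, 22.5% and 43.2%.

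The ratio of Th to Tph2 per length was 90.8, 3.19, 1.69 and 89.7. The summed level of the serotonergic list was 22.5, 55.8, 123 and 27.0 CPM, and its mean of 57.1 CPM was 35.1 CPM without replicate 3. Serotonin neurons also use Ddc and Slc18a2, and both were highest in replicate 3, at 83.8 and 84.9 CPM. Th and Slc6a3, which serotonin neurons do not use, were highest in the same library. The part of serotonin neurons in the values of Ddc and Slc18a2 was not tested. Of the noradrenergic list, Dbh averaged 0.284 CPM, with 3 to 14 counts per library, and Slc6a2 and Pnmt had no row. None of the 9 hindbrain Hox genes had a row, and these genes were not analysed here.

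The enzymes and transporters of GABA were more abundant per length than those of dopamine. Gad1, which makes most GABA of the cell body, had 389, 546, 578 and 336 CPM in replicates 1 to 4 and a mean of 401 ± 99.4 TPM, and its ratio to Th per length ran from 3.39 to 6.74. Gad2, the synaptic form of the enzyme, had 222 ± 19.9 TPM, and the vesicular transporter Slc32a1 had 227 ± 40.1 TPM. Gata2, Gata3 and Tal1, the selector genes of midbrain GABAergic neurons, lay between 5.53 and 6.25 TPM. Of the 11 genes, 7 were highest in replicate 3, 3 in replicate 2 and 1 in replicate 4, against background shares of 20.2%, 22.5% and 43.2%.

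The 2 main vesicular glutamate transporters had nearly the same mean, 242 ± 63.2 TPM for Slc17a6 and 239 ± 140 TPM for Slc17a7, but opposite patterns over the libraries. Slc17a6 (VGLUT2), the transporter of thalamic, hypothalamic and midbrain neurons, had 436, 247, 296 and 395 CPM. Slc17a7 (VGLUT1), that of cortex and hippocampus, had 205, 433, 225 and 94.8 CPM. Their ratio per length was 1.497, 0.401, 0.925 and 2.93, below 1 in replicates 2 and 3 and above it in the others. Slc17a8 was low at 3.21 ± 0.934 TPM.

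Cholinergic genes were present at low level. The acetylcholine enzyme Chat had 5.33, 12.8, 14.3 and 11.3 CPM, and the vesicular transporter Slc18a3 had 8.78 ± 2.84 TPM. Phox2a, a selector gene of oculomotor neurons, averaged 0.283 CPM. Of the genes common to all neurons, Uchl1 had 1742 ± 103 TPM, Eno2 1189 ± 73.7 TPM and Tubb3 806 ± 69.5 TPM. The neurofilament genes spread most, with Nefh at 339, 267, 379 and 193 CPM and Nefm at 451, 366, 490 and 255 CPM. The summed level of the 14 general neuronal genes was 9534, 9080, 9612 and 8015 CPM, lowest in replicate 4.

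Myelin genes had the largest mean sum of the cell type lists, which differ in their number of genes. The 14 genes of mature oligodendrocytes came to 10483, 11522, 13840 and 8059 CPM in replicates 1 to 4. Mbp had 4176, 4677, 5503 and 2919 CPM. Replicate 3 was the highest and replicate 4 the lowest, as for the sum. Of the 14 genes 13 were highest in replicate 3, where the background share was 20.2%. Cnp, Trf, Mag, Mobp and Mal lay between 321 and 682 TPM, and Opalin, a marker of the most mature cells, spread most, from 11.0 CPM in replicate 1 to 29.9 CPM in replicate 3.

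The 7 genes of the oligodendrocyte precursor list, some of which both stages use, ordered the libraries in different ways. Their sum was 876, 870, 864 and 798 CPM, a coefficient of variation of 4.25% against 21.8% for the sum of the mature list. Gene by gene the contrast was smaller, with medians of 14.3% for the precursor list and 21.8% for the mature list. Pdgfra, the growth factor receptor that defines the precursors, had 68.3, 77.0, 74.6 and 85.0 CPM, highest in replicate 4. Olig1 and Sox10, which mature cells use too, had 207, 204, 238 and 159 CPM and 77.4, 78.5, 93.4 and 62.3 CPM, highest in replicate 3 and lowest in replicate 4 like the myelin sum. Olig2 had 57.5, 54.8, 56.0 and 35.8 CPM.

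The 13 astrocyte genes summed to 6747, 8024, 6316 and 5964 CPM. Gfap, the filament protein of fibrous and reactive astrocytes, had 218, 311, 255 and 230 CPM and a mean of 279 ± 43.7 TPM. Mbp exceeded it per length by 20.3, 16.0, 22.9 and 13.5 times, but this depends on the length of Mbp: with longest coding transcripts the levels were 2774 and 295 TPM, and with the transcripts of the deposited rows 19080 and 270.2 TPM. The enzymes Aldoc and Glul had 1661 ± 111 and 1361 ± 252 TPM, and the GABA transporter Slc6a11 had 602 ± 63.2 TPM. Slc1a2, the main glutamate transporter of forebrain astrocytes, spread most with 1534, 2277, 1332 and 1178 CPM, and Sox9, an astrocyte transcription factor, spread least, between 38.6 and 40.8 CPM. Of the 13 genes 9 were highest in replicate 2 (11 with TMM library sizes), with a background of 22.5% (30.9% with TMM).

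Microglial genes were lower and ordered the libraries alike. All 12 were highest in replicate 2 (background 22.5%), and their sum was 443, 583, 505 and 428 CPM. Ctss, a lysosomal protease, had 128 ± 19.6 TPM. The complement genes C1qa, C1qb and C1qc had 100 ± 16.3, 79.6 ± 16.0 and 61.0 ± 10.3 TPM, and the homeostatic receptor P2ry12 had 24.9, 39.0, 31.2 and 23.1 CPM. The highest library exceeded the lowest by 1.36 times in the sum.

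Blood vessel genes were steady as a sum in endothelium and graded in the cells around it. The 10 endothelial genes summed to 333, 374, 387 and 373 CPM, a coefficient of variation of 6.39%. Gene by gene, their median was 13.9% at a median level of 34.9 CPM. Over all genes between 30 and 100 CPM the median was 7.72%, so the single genes were not steady. Pericyte and smooth muscle genes came to 147, 178, 228 and 281 CPM, and the contractile gene Myh11 had 9.46, 9.65, 15.2 and 27.9 CPM. All 6 genes of meninges and fibroblasts were highest in replicate 4 (background 43.2%, or 31.3% with TMM). Igf2, a growth factor of the meninges, had 47.2, 92.3, 102 and 187 CPM, and the collagen gene Col3a1 had 2.90, 5.26, 7.67 and 13.8 CPM. Replicate 1 was lowest in each of these, and in Ptgds, named above.

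Blood itself was present in all libraries. Hba-a1, whose counts equal those of its copy Hba-a2, had 144, 168, 181 and 201 CPM, and Ptprc, the pan-leukocyte marker, had 2.63, 4.48, 3.08 and 3.43 CPM. Hbb-b1, S100a8 and S100a9 had no row and were not analysed here. Ttr, the transthyretin of the choroid plexus, had 112, 83.9, 84.1 and 19.2 CPM, and of the other choroid genes Folr1, Aqp1 and Otx2 were also lowest in replicate 4, at 1.03, 0.353 and 6.25 CPM. Clic6, Sostdc1 and Kcnj13 were highest in that library, at 24.9, 3.17 and 2.40 CPM. The 6 genes of ciliated ependyma were all highest in replicate 4 (background 43.2%, or 31.3% with TMM) and all lowest in replicate 3, with Foxj1, their master regulator, at 23.2, 19.1, 12.7 and 24.3 CPM. With TMM library sizes, 5 of the 6 were highest in replicate 4, and Foxj1 was highest in replicate 1.

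Genes of neighbouring brain regions differed widely between the libraries. Striatal genes summed to 376, 1592, 634 and 409 CPM, and all 10 were highest in replicate 2 (background 22.5%). Ppp1r1b (DARPP-32), a phosphatase regulator of striatal projection neurons, had 43.3, 396, 111 and 39.0 CPM. Adora2a, the adenosine receptor of the indirect pathway, had 2.90, 74.7, 20.4 and 4.42 CPM, and Penk, its opioid peptide, had 72.9, 329, 148 and 90.7 CPM. The mean of the list was 753 CPM with all libraries and 473 CPM without replicate 2.

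Genes of cortex and hippocampus followed the same library. They summed to 1418, 2854, 1559 and 1024 CPM, with 10 of 13 highest in replicate 2 (background 22.5%, or 30.9% with TMM). Camk2a, the kinase of forebrain excitatory synapses, had 840, 1663, 873 and 614 CPM, and Tbr1, a transcription factor of deep cortical layers, had 6.07, 30.6, 9.55 and 6.60 CPM. Emx1, which marks the dorsal forebrain, had 0.618, 2.97, 1.04 and 0.0641 CPM, from 16, 61, 26 and 2 counts. Prox1, of the dentate gyrus and thalamus, went the other way, with 25 CPM in replicate 2 and between 43.3 and 44.9 CPM in the others.

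As a sum, thalamic genes were highest in replicate 1 and lowest in replicate 2, with values of 1571, 825, 1200 and 1077 CPM. Of 8 genes, 7 were highest in replicate 1, where the background was 14.1% (18.0% with TMM). Prkcd, a kinase of thalamic relay neurons, had 502, 251, 456 and 234 CPM, and Gbx2, a thalamic selector gene, had 35.9, 14.0, 12.3 and 25.5 CPM. Tcf7l2, a transcription factor of thalamus and midbrain, had 261, 130, 160 and 180 CPM.

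Hypothalamic genes were highest in replicate 4. They summed to 437, 326, 373 and 819 CPM, and 9 of 11 were highest in that library (background 43.2%, or 31.3% with TMM). Pmch, the melanin-concentrating hormone precursor of the lateral hypothalamus, was the most abundant at 693 ± 303 TPM, with 156, 114, 153 and 288 CPM. Hcrt (orexin), from the same area, had 34.3, 28.4, 44.6 and 70.0 CPM. Avp and Oxt, the hormones of the paraventricular and supraoptic nuclei, had 88.4, 68.2, 75.6 and 188 CPM, and 66.4, 50.0, 39.0 and 130 CPM. Pomc, made in the arcuate nucleus and the pituitary, had 18.1, 8.04, 3.96 and 23.3 CPM, and Tshb, a pituitary hormone subunit, had 0.734, 0.292, 0.200 and 0.481 CPM, also highest in replicates 1 and 4. The pituitary genes Gh, Prl, Cga, Lhb and Pou1f1 had no row, and neither had the arcuate peptide Agrp.

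**Figure D3:**
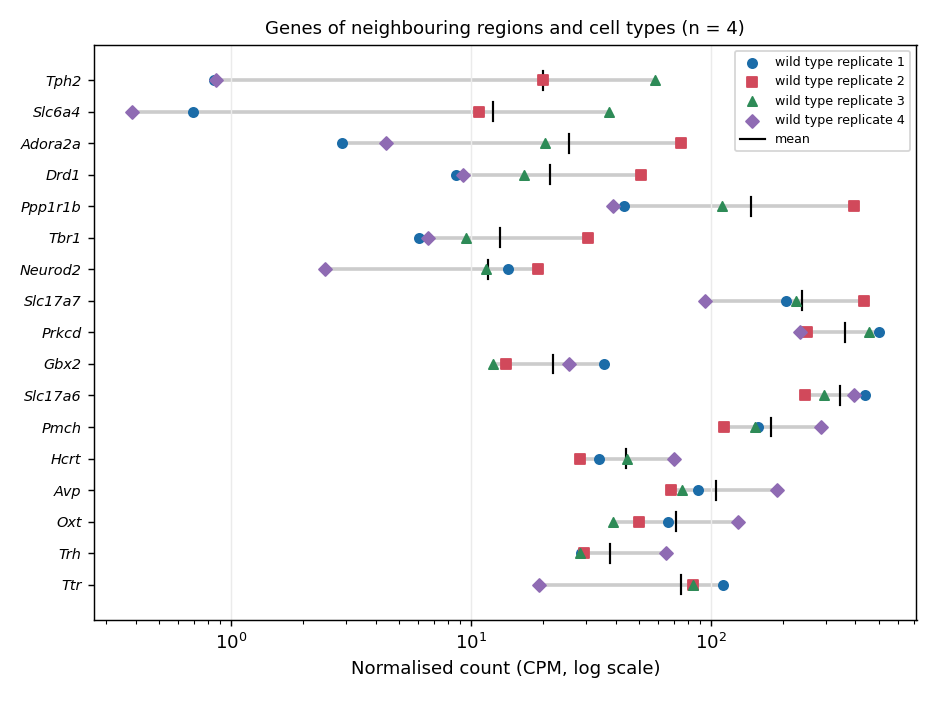
Genes of other regions and cell types in the 4 wild type libraries. The horizontal axis is CPM on a log scale, each symbol is 1 library, the grey bar spans the lowest to the highest library and the black tick is the mean. Tph2 and Slc6a4 are highest in replicate 3, the striatal genes Adora2a, Drd1 and Ppp1r1b in replicate 2, the thalamic genes Prkcd and Gbx2 in replicate 1, and Pmch, Hcrt, Avp, Oxt and Trh in replicate 4.

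By their sums, each library was the highest for lists of its own. Replicate 1 was highest for thalamic genes and replicate 2 for striatal, cortical and microglial genes. Replicate 3 was highest for dopaminergic, serotonergic and myelin genes, and replicate 4 for hypothalamic, ependymal and meningeal genes. The list of nigral and ventral tegmental subtypes, which shares Slc17a6 with the thalamic list, did not follow the dopaminergic list. Its sum was 893, 692, 703 and 791 CPM, highest in replicate 1. The plot of summed lists shows them in order of spread. The labels do not describe where the tissue was cut, and the part of dissection in these differences was not tested.

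**Figure D4:**
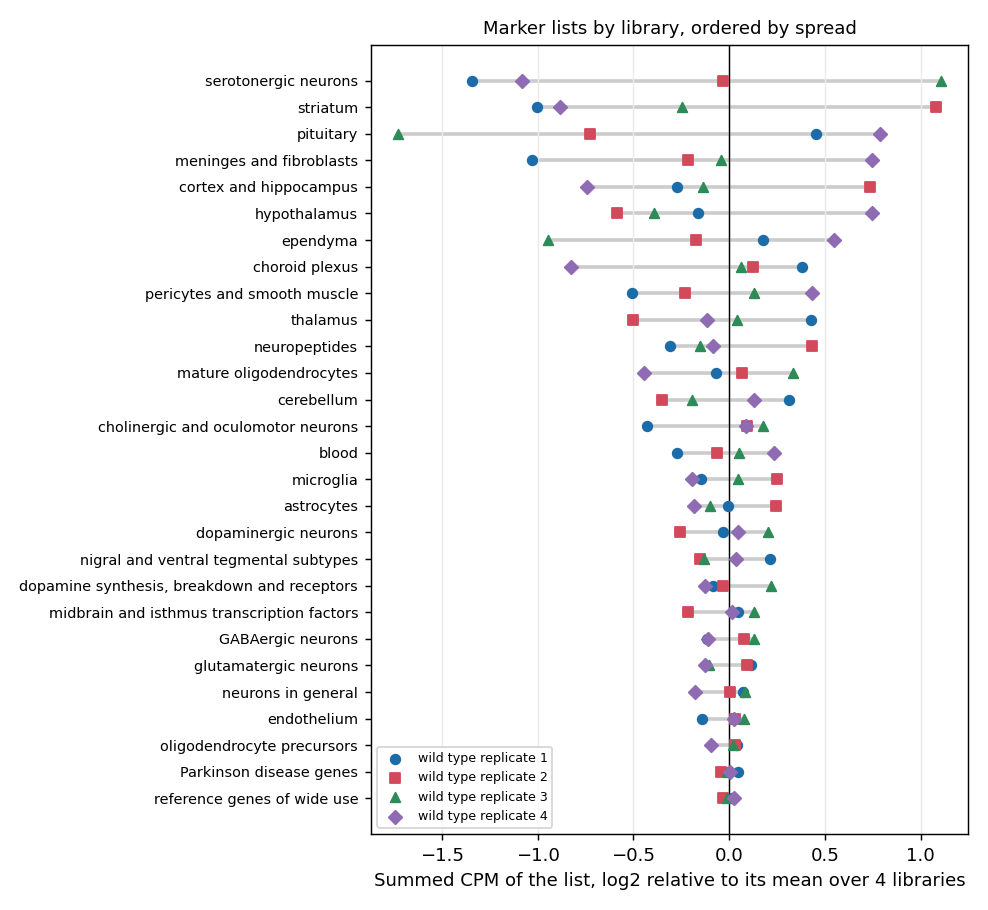
Summed CPM of marker lists in each library, as log2 of its ratio to the mean of the list over the 4 wild type libraries. The noradrenergic, hindbrain Hox and glycolysis lists are not shown. Each symbol is 1 library, the grey bar spans the lowest to the highest, and lists run from the least spread at the bottom (reference genes and Parkinson disease genes) to the most spread at the top (serotonergic neurons and striatum).

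By its sum, the list of genes linked to inherited Parkinson disease was among the steadiest. Gene by gene, its median coefficient of variation was 7.58% at a median level of 66.5 CPM. Over all genes between 30 and 100 CPM the median was 7.72%, so its members were not unusually steady. The sum of the 14 with a row was 2794, 2623, 2684 and 2715 CPM, a coefficient of variation of 2.63%, against 1.66% for 14 reference genes of wide use. Uchl1, a neuronal ubiquitin hydrolase, led at 1742 ± 103 TPM, followed by the mitochondrial kinase Pink1 (501 ± 39.8 TPM) and the redox sensor Park7 (276 ± 4.62 TPM). The retromer gene Vps35 had 155 ± 5.84 TPM.

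Of these 14 genes 2 had a coefficient of variation above 30%, against 9.08% of all 14172 genes. One was Lrrk2, at 35.8%. Lrrk2, a kinase with high levels in striatal neurons, had 24.5, 48.8, 28.2 and 25.9 CPM and was highest in replicate 2. Whether striatal RNA contributed to the value of Lrrk2 was not tested.

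Reference genes were not equal in level. Per length, Actb had 1196 ± 87.0 TPM, Ppia 505 ± 21.4 TPM, Hprt 301 ± 22.2 TPM and Tbp 4.33 ± 0.461 TPM. Gapdh had only 57.8, 58.5, 54.8 and 50.3 CPM, or 114 ± 7.18 TPM. In a glycolysis list chosen after its values were seen, Gapdh was the lowest of 15 enzymes by TPM, and Aldoa exceeded it per length by 21.5 ± 0.880 times. Gapdh has many near-identical processed copies in the mouse genome and the treatment of reads with several matches is not given here, so its level is uncertain.

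The spread among the libraries was small for most genes. Over 14172 genes that averaged at least 1 CPM, the median coefficient of variation was 10.2%, with quartiles at 6.16% and 17.5%. Counting error alone gave a median of 3.72%, and the spread beyond it had a median of 8.84%. The median was lower at higher levels, 26% between 1 and 3 CPM and 7.53% at 100 CPM and above. A coefficient of variation above 30% was found in 1287 genes, 9.08% of them. Of these genes 763 (59.3%) were highest in replicate 4, 314 (24.4%) in replicate 2, 126 (9.79%) in replicate 3 and 84 (6.53%) in replicate 1. Over all 14172 genes the shares were 43.2%, 22.5%, 20.2% and 14.1%.

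**Figure D5:**
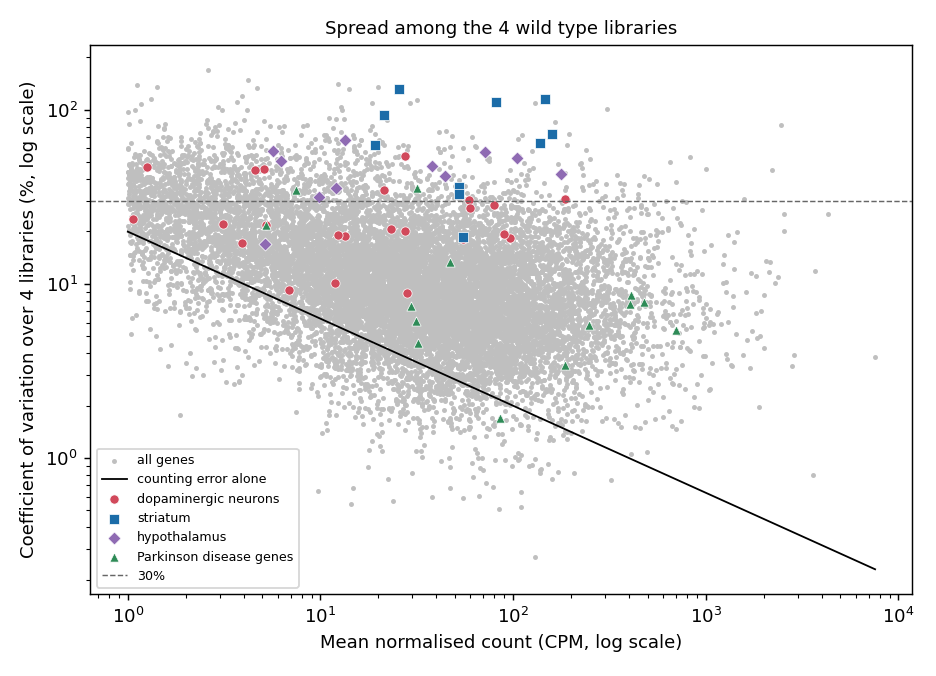
Coefficient of variation over the 4 wild type libraries (percent, log scale) against mean CPM (log scale) for 14172 genes. Each grey point is 1 gene, coloured symbols are 4 of the lists, the black line is the spread that counting alone gives and the dashed line marks 30%. Of the striatal genes 9 of 10 and of the hypothalamic genes 10 of 11 lie above the dashed line, against 7 of 23 dopaminergic and 2 of 14 Parkinson disease genes. Of all 14172 genes, 9.08% lie above it.

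The genes that spread most, among those with a mean of at least 10 CPM, were led by serotonergic and striatal genes. Of the 15 widest, 13 were highest in replicate 2 and the others, Slc6a4 and Tph2, in replicate 3. Over all 14172 genes with a mean of at least 1 CPM, replicate 2 was the highest for 22.5% and replicate 3 for 20.2%. Besides Adora2a, Ppp1r1b and Drd1, they included Arpp21, a cyclic AMP-regulated phosphoprotein of striatum and cortex, with 46.0, 338, 93.1 and 39.6 CPM. Ddn, a postsynaptic protein of forebrain dendrites, had 170, 764, 236 and 65.4 CPM, and Itpka, a forebrain inositol kinase, had 11.9, 50.5, 18.1 and 5.67 CPM. In each of these 3 genes replicate 3 was the second highest.

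The 10 steadiest genes of that level were Khdrbs1, Urgcp, Eif3f, Tbccd1, Gmeb2, Mul1, Psmb3, Blmh, Mrps25 and Gatb. Khdrbs1, an RNA-binding protein, had 130.1, 130.1, 129.7 and 130.6 CPM. Eif3f, a subunit of a translation initiation factor, lay between 109.1 and 110.3 CPM, and Psmb3, a proteasome subunit, between 37.6 and 38.0 CPM. All of them varied by less than counting error alone gives.

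Libraries deviated more in long transcripts than in short ones in replicates 2, 3 and 4. Among the longest 10% of genes by transcript length, the median log2 deviation of a library from the mean of the gene was -0.0046, -0.09, -0.04 and 0.13 in replicates 1 to 4. Among the shortest 10% it was -0.03, -0.0076, 0.02 and 0.01. Over all 14172 genes it was -0.013, -0.041, 0.006 and 0.049, so part of these values is a shift of the whole library. Spearman's rho of the deviation with length was 0.024, -0.080, -0.145 and 0.138. Long transcripts were thus relatively high in replicate 4 and relatively low in replicates 2 and 3. The part of RNA or library quality in this was not tested.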

How the data were processed

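The authors deposited 1 table of raw counts per coding RefSeq transcript, with 19931 rows. Per the submitters' processing notes, TopHat 1.3.1, edgeR and the mm9 build were used. How reads were counted, by strand or not and with several matches or not, is "not given in the sources used here": genes that overlap or have near copies are uncertain. Every row held at least 10 counts in the 4 wild type libraries together. The table's fold changes and p-values were left out.

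A symbol was found for 19600 rows and for 331 none. Each gene was read from its row of highest total, and 40 genes were merged with a gene of equal counts, which left 15279 genes. TPM used a transcript length, found for 98.0% of genes: the longest among rows with at least 90% of the counts of the highest row. No test was made, since 1 group is described. TMM factors came from edgeR 4.0.16 in R 4.3.3. The calculation of spread was tested on simulated data. No library was a copy of another: the counts of each pair differed beyond sampling noise (chi-square per degree of freedom at least 11.7).

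The lists were chosen with earlier results of these data known. The glycolysis list and the alternatives for transcript length and for the highest library were added after seeing the data. Named were the 6 given markers, the 25 most abundant genes on each scale, up to 5 leading members, the widest and the missing members of each list, and the 15 widest and 10 narrowest genes above 10 CPM. Other members named illustrate their lists and were chosen after their values were seen. Some genes of the lists and of the most abundant genes are counted in the sums but are not reported here by name.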

Additional observations from a re-analysis of the deposited data

Results flagged for a closer look

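In groups of 4, a library was singled out where the gap between it and the nearest of the others, divided by the whole range, was above Dixon's 95% critical value for 4 values. Chance singles out about 1 in 20 groups of values. Over 14172 genes the share was 5.68%, and of the 302 genes and 31 lists examined for the text 21 genes and 1 list were singled out. The list was that of oligodendrocyte precursors, whose sum was 798 CPM in replicate 4 and between 864 and 876 CPM in the others. Replicate 2 stood apart as the highest library for Aldh1l1 at 78.0 CPM against 66.5 to 68.2, Cst3 at 1124 CPM against 896 to 912, Kcnv1 at 32.3 CPM against 4.81 to 8.19, Lars2 at 5467 CPM against 1231 to 1570, Lpl at 21.9 CPM against 6.25 to 8.15, Lrrc10b at 41.9 CPM against 3.49 to 5.99, Lrrk2 at 48.8 CPM against 24.5 to 28.2, Rxrg at 37.0 CPM against 10.9 to 15.3 and Tbr1 at 30.6 CPM against 6.07 to 9.55 in the other libraries. Replicate 2 stood apart as the lowest library for Foxa1 at 2.92 CPM against 4.23 to 4.29 and Prox1 at 25 CPM against 43.3 to 44.9 in the other libraries. Replicate 3 stood apart as the highest library for Chrna6 at 17.1 CPM against 11.6 to 12.4 in the other libraries. Replicate 4 stood apart as the highest library for Avp at 188 CPM against 68.2 to 88.4, Gusb at 18.7 CPM against 16.0 to 16.3, Isl1 at 16.7 CPM against 10.9 to 11.8 and Trh at 64.9 CPM against 28.3 to 29.5 in the other libraries. Replicate 4 stood apart as the lowest library for Aldoc at 864 CPM against 994 to 1013, Eno1 at 608 CPM against 682 to 687, Olig2 at 35.8 CPM against 54.8 to 57.5, Snap25 at 1646 CPM against 2160 to 2260 and Tbccd1 at 14.26 CPM against 14.41 to 14.43 in the other libraries. The coefficient of variation of Tbccd1 was 0.545%, below the 5.26% that counting error alone gives, so its gap lies within counting error. The 302 genes included the 15 widest and 10 narrowest, which were taken by their spread in these same values.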

How the results depend on the processing

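No paired analysis was possible because the result comes from no test. A value was called moved if it left a set limit. The limit was the SD between libraries for levels and shares, and a fixed factor for counts of genes. For the median coefficient of variation it was the SD of the medians with 1 library left out. With TMM library sizes, all 38 recomputed values stayed within these limits, and the count of genes at or above 1 CPM in all libraries was 13737. The TMM factors lay between 0.970 and 1.04, so mean levels could move only a little, and staying within the limits says little about them. Summing all rows of a gene, which counts the reads of genes with several transcripts repeatedly, moved 20 of 37 values: the 10 most abundant genes then took 6.55% of counts, the dopaminergic list came to 1142 CPM and Mbp to 21611 CPM. Without members that other lists hold, the dopaminergic list came to 382 CPM. The median coefficient of variation was 8.50% among genes with a mean of at least 10 CPM and 11.0% with no filter. Leaving out 1 library at a time gave medians from 8.46% (without replicate 4) to 10.6%, 978 to 1560 genes above 30%, 13765 to 13832 genes at or above 1 CPM, and dopaminergic sums from 781 (without replicate 3) to 867 CPM (without replicate 2). The serotonergic mean rests on replicate 3 and the striatal mean on replicate 2, as given above. Depth limits genes near 1 CPM, where 3 counts are worth up to 0.146 CPM, and with 4 libraries the SD of a single gene is itself imprecise.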
